A study of Mus musculus with 6 samples.

Results

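The genes described here are 10 components and outputs of the insulin path in mouse liver. They are the insulin receptor gene Insr, the substrate genes Irs1 and Irs2, the kinase genes Akt1 and Akt2, the PI3-kinase subunit gene Pik3r1, the transcription factor gene Foxo1, the binding protein genes Igfbp1 and Igfbp2, and Niban1. They were taken by symbol from a table of 32212 rows. All 10 were found, none of them on a repeated row, and all 10 passed the filter on low counts, as did 13867 genes in all. The mice were male, on the C57BL/6 background, 2 yr old and fed a chow with 13.5% of calories from fat. WT mice were compared with CgA-KO mice, which lack chromogranin A, a prohormone of neuroendocrine cells. Poly(A)-selected RNA of the liver was sequenced from 3 mice of each genotype, with 1 library per mouse. The labels give neither the hour at which livers were taken nor the feeding state, and they name no insulin injection for these livers.

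Insulin binds its receptor on hepatocytes, and the receptor phosphorylates the IRS proteins. These recruit PI3-kinase, whose lipid product activates the AKT kinases. AKT phosphorylates FOXO1 and so keeps it out of the nucleus, and in the fasted liver, where insulin is low, FOXO1 is nuclear and raises the transcription of genes such as Igfbp1, Irs2, Pck1 and G6pc. Most of the path therefore works by phosphorylation, which transcript counts do not measure. Niban1 encodes a stress-responsive protein that has been linked to cell survival and to the control of translation.

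Promoter sequence is shown first for the members whose start site lies near letters of the type that FOXO factors bind. The windows are those of RefSeq on GRCm38.p6, from 250 bases before to 50 after each start. Of the members, 9 had a window, 15 windows in all, and Insr had no entry. The letters GTAAACA and CAAAACA were searched on both strands (TGTTTAC and TGTTTTG on the other), and no match of one overlapped a match of the other in these windows. Matches were found for 4 members, and Niban1, Foxo1, Pik3r1, Akt2 and Igfbp2 had none in these windows. Over all windows, 3.65% of 32851 held GTAAACA and 6.28% held CAAAACA. By gene, 4.05% of 27025 held GTAAACA in at least 1 window and 7.20% held CAAAACA. Among the members, Akt1 held GTAAACA, and Igfbp1, Irs1 and Irs2 held CAAAACA. The share of genes with either was not computed, so nothing particular to the members is read from their count. The match of Igfbp1 lies from 108 to 102 bases before the start, those of Irs1 from 111 to 105 and from 32 to 26 bases before it, that of Irs2 from 37 to 31 and that of Akt1 from 161 to 155. These distances are from the RefSeq start. For Irs2 it lies upstream of the GENCODE start used for the gene coordinates below, from which the distance is longer. Capitals mark the match, each sequence is given 5′ to 3′ on the strand of its gene, and a match is a description of the letters only.
Igfbp1, chr11:7197537-7197781, plus strand: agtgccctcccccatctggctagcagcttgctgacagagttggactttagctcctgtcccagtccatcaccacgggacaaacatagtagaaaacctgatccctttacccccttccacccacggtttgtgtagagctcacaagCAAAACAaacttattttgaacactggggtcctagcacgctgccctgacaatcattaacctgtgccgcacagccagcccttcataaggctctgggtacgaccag
Irs1, chr1:82291529-82291565, minus strand: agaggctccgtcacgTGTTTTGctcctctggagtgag
Irs1, chr1:82291450-82291486, minus strand: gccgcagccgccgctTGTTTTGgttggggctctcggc
Irs2, chr8:11008945-11008981, minus strand: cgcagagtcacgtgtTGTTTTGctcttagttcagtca
Akt1, chr12:112675024-112675060, minus strand: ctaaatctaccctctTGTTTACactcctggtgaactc

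In the libraries, total counts ran from 10558616 to 31087453. Chga, the deleted gene, had 0 counts in all 6 libraries, which allows up to 0.284 CPM in the shallowest one, so it cannot check the labels. The 10 hepatocyte markers summed to between 57832 and 96348 CPM in WT and between 48353 and 83776 CPM in CgA-KO livers. The summed levels of Kupffer cell, lymphocyte, neutrophil, stellate cell and red cell markers did not overlap between the genotypes, and were higher in CgA-KO livers. Those of endothelial, bile duct and pancreas markers overlapped. Of the 10 lymphocyte markers, 8 had positive log2 fold changes, and limma-voom called 1. Of the 8 neutrophil markers, 4 were tested and 3 called higher, and limma-voom called 1. The red cell markers did not move together, since of 4 tested 1 was called higher and 1 lower. The 8 Kupffer cell markers summed to between 99.7 and 250.2 CPM in WT and between 944 and 1619 CPM in CgA-KO livers, with 7 of 8 called higher, and the 10 lymphocyte markers to between 10.5 and 76.6 and between 81.1 and 189.7 CPM, with 6 called higher. In bulk liver, more cells of a type and more RNA per cell cannot be told apart.

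Each gene was tested by the quasi-likelihood method of edgeR. Its p-value was adjusted after Benjamini and Hochberg across the whole table, and a gene is said to be called, or to have risen or fallen, where that value was below 0.05. Levels are CPM, the share of a library's counts after TMM scaling, and errors are the SD over 3 livers. Of the 10 genes, 2 were called, Igfbp1 and Niban1, both higher in CgA-KO livers, where 12.4% of all genes tested were called and 8.6% were called higher. Since 2 of 10 is 20%, nothing particular to these genes is read from the count. Before adjustment 3 of the 10, Akt2 among them, had an edgeR p-value under 0.05, beside 29.1% of all genes. The other 8 had fitted log2 fold changes between -0.50 and 0.43. In 5 of the 10 genes, all livers of one genotype lay on one side of all livers of the other, as was seen in 33.6% of all genes tested. With groups of 3, the smallest two-sided p-value that exact permutation of the livers can reach is 0.1.

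**Figure D1:**
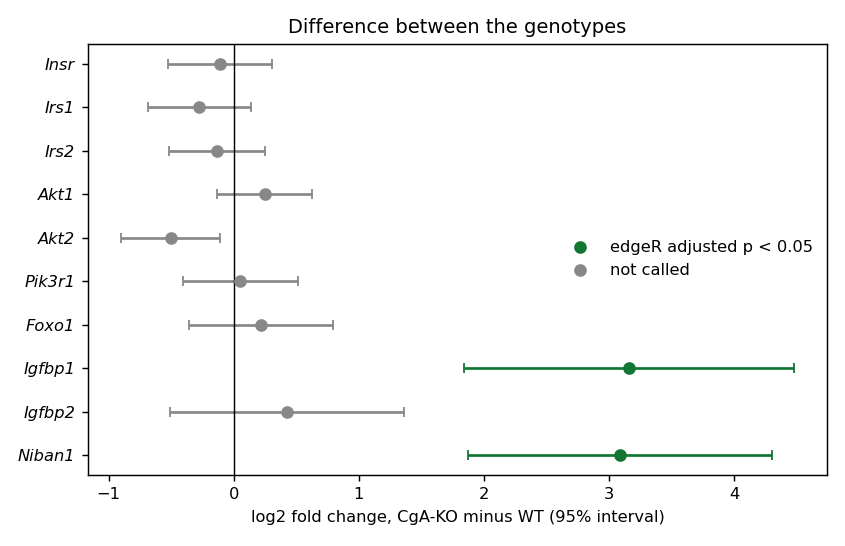
log2 fold change of each gene, CgA-KO minus WT, on the horizontal axis, with 95% intervals from edgeR's quasi-likelihood fit and calls in green. Igfbp1 (3.16) and Niban1 (3.09) stand apart, the interval of Akt2 lies below 0 without a call, and the intervals of the other 7 genes include 0.

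Igfbp1 encodes a secreted protein of hepatocytes that binds insulin-like growth factors and whose transcription insulin shuts off. It lies on the plus strand of chromosome 11 of GRCm38, from 7197782 to 7202546. WT replicates 1, 2 and 3 held 213, 172 and 151 counts, or 19.1, 7.32 and 6.40 CPM. CgA-KO replicates 1, 2 and 3 held 813, 4987 and 2046 counts, or 37.7, 158.1 and 91.7 CPM. Every CgA-KO liver was above every WT liver, and both genotypes were widely spread, with WT replicate 1 the highest of its group and CgA-KO replicate 2 the highest of all. The means were 10.9 ± 7.07 and 95.9 ± 60.3 CPM, an 8.94-fold difference with a 95% interval from 3.59 to 22.3 (log2 fold change 3.16, standard error 0.582, edgeR adjusted p = 0.0125). The call was lost without WT replicate 2 (log2 fold change 2.94, edgeR adjusted p = 0.103) and without WT replicate 3 (2.87, edgeR adjusted p = 0.0999). The log2 fold change was 3.84 without WT replicate 1 and 2.63 without CgA-KO replicate 2.

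Igfbp2, a second circulating binding protein of the same family, had the highest level of the 10 genes. It lies on chromosome 1 from 72824503 to 72852474. Its levels were 251.5, 440.3 and 368.8 CPM in WT replicates 1, 2 and 3, and 304.6, 814.0 and 306.0 CPM in CgA-KO replicates 1, 2 and 3. The groups overlapped, since the other CgA-KO livers lay inside the WT range and CgA-KO replicate 2 lay far above it. This was also the liver with the most Igfbp1. The log2 fold change was 0.43 with a 95% interval from -0.51 to 1.36 (edgeR adjusted p = 0.540), and it was -0.17 without CgA-KO replicate 2.

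Within one library, a ratio of a pair of genes does not depend on how libraries are scaled, so 3 pairs of related members were compared that way. Igfbp2 had 13.2, 60.2 and 57.7 counts for each count of Igfbp1 in WT replicates 1, 2 and 3, and 8.07, 5.15 and 3.34 in CgA-KO replicates 1, 2 and 3. The mean log2 ratio was 5.16 ± 1.25 in WT and 2.37 ± 0.637 in CgA-KO, and the genotypes did not overlap (exact permutation test, p = 0.1, the smallest possible, or 0.15 adjusted over the 3 ratios).

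Akt1 and Akt2 encode AKT kinases, of which AKT2 is the form chiefly tied to insulin's control of glucose. Akt2 lies on chromosome 7 from 27591552 to 27640826 and Akt1 on chromosome 12 from 112653821 to 112674884. Akt2 was at 82.8, 101.6 and 91.0 CPM in WT replicates 1, 2 and 3 and at 61.3, 68.5 and 64.6 CPM in CgA-KO replicates 1, 2 and 3. All CgA-KO livers were below all WT livers, and the spread within each genotype was small. The means were 91.8 ± 9.40 and 64.8 ± 3.61 CPM, or -0.50 on the log2 scale with a 95% interval from -0.90 to -0.11 (standard error 0.175, edgeR unadjusted p = 0.0184 and adjusted p = 0.0941). It was therefore not called here, while DESeq2 gave an adjusted p of 0.0426, in a test that called 16.7% of its genes. Over all alternatives the adjusted p ran from 0.0426 to 0.570, the last with library factors taken from the hepatocyte markers.

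Akt1 was at 48.1, 58.4 and 55.7 CPM in WT replicates 1, 2 and 3 and at 61.3, 67.4 and 64.0 CPM in CgA-KO replicates 1, 2 and 3. Here every CgA-KO liver was above every WT liver, by a small margin. Its log2 fold change was 0.25 with a 95% interval from -0.13 to 0.63 (edgeR adjusted p = 0.371).

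The ratio of the pair had little spread within either genotype. For each count of Akt1 there were 1.72, 1.74 and 1.63 counts of Akt2 in WT replicates 1, 2 and 3, and 1.0, 1.02 and 1.01 in CgA-KO replicates 1, 2 and 3. No library lay between the groups. The mean log2 ratio of Akt2 to Akt1 was 0.76 ± 0.048 in WT and 0.013 ± 0.012 in CgA-KO livers, a difference of -0.75 (exact permutation test, p = 0.1, the smallest possible, or 0.15 adjusted over the 3 ratios). With any library left out the difference stayed between -0.78 and -0.73. A ratio within a library describes how the counts of the genes stand to each other, not which of them changed. It is free of scaling but not of the mix of cells, whose part here was not tested.

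**Figure D2:**
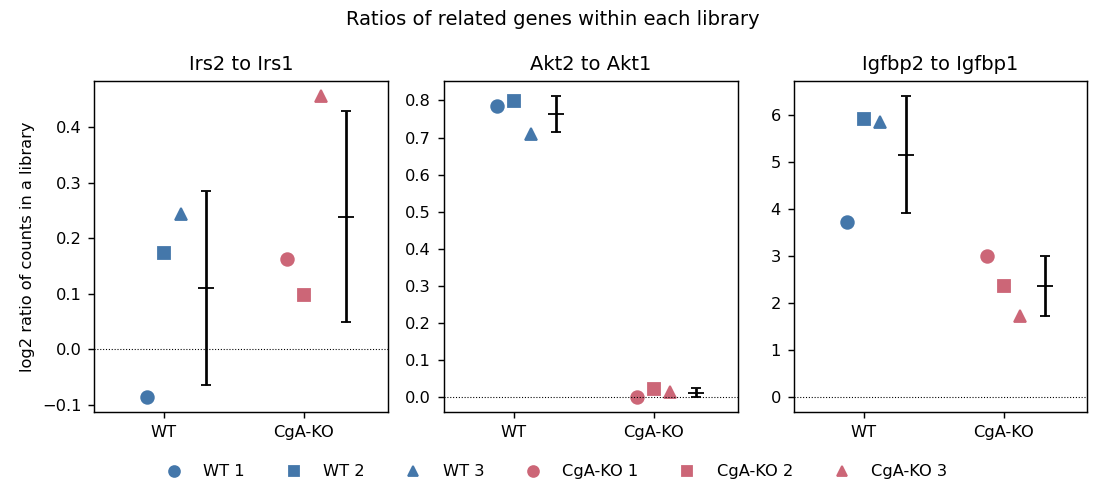
log2 ratio of raw counts within each library for 3 pairs of genes, WT in blue and CgA-KO in red, 1 symbol per replicate number, with the mean and SD in black; each panel has its own vertical scale, and the dotted line marks equal counts. The Akt2 to Akt1 ratio is 0.76 ± 0.048 in WT and 0.013 ± 0.012 in CgA-KO, the Igfbp2 to Igfbp1 ratio is also apart, and the Irs2 to Irs1 ratio overlaps.

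Insr, on chromosome 8 from 3122061 to 3279617, encodes the receptor that starts the path. Its levels were 109.0, 105.8 and 117.2 CPM in WT replicates 1, 2 and 3 and 111.6, 108.0 and 88.4 CPM in CgA-KO replicates 1, 2 and 3. The genotypes overlapped, with CgA-KO replicate 3 the lowest of all. The log2 fold change was -0.11 with a 95% interval from -0.53 to 0.31 (edgeR adjusted p = 0.744), so the interval spans a fall by 30.6% to a rise of 23.9%.

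Irs1 and Irs2 encode the docking proteins that carry the signal from the receptor to PI3-kinase. Irs1 lies on chromosome 1 from 82233101 to 82291416 and Irs2 on chromosome 8 from 10984681 to 11008458. For Irs1 the levels were 26.2, 19.9 and 20.2 CPM in WT and 19.8, 17.5 and 17.5 CPM in CgA-KO livers. The groups did not overlap, although CgA-KO replicate 1 lay just under WT replicate 2. Its log2 fold change was -0.27 with a 95% interval from -0.69 to 0.14 (edgeR adjusted p = 0.361).

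Irs2, which insulin represses and FOXO1 raises, was at 24.7, 22.5 and 23.9 CPM in WT and at 22.1, 18.7 and 24.0 CPM in CgA-KO livers. The genotypes overlapped. Its log2 fold change was -0.13 with a 95% interval from -0.52 to 0.25 (edgeR adjusted p = 0.653). The upper bound of that interval, a 1.19-fold rise, is below the lower bound of the interval for Igfbp1, which is 3.59-fold. Genes raised by one factor need not differ by equal amounts, and the part of FOXO1 in either value was not tested. The ratio of Irs2 to Irs1 was 0.942, 1.13 and 1.18 in WT and 1.12, 1.07 and 1.37 in CgA-KO livers, and the groups overlapped (exact permutation test, p = 0.6, also 0.6 adjusted over the 3 ratios).

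Pik3r1 encodes the regulatory subunit p85-alpha and its shorter forms, which hold and place the catalytic subunit of PI3-kinase. It lies on chromosome 13 from 101680563 to 101768217. Its levels were 47.6, 54.2 and 67.1 CPM in WT and 62.1, 64.8 and 48.7 CPM in CgA-KO livers. All CgA-KO livers lay inside the WT range. Its log2 fold change was 0.05 with a 95% interval from -0.40 to 0.51 (edgeR adjusted p = 0.893).

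Foxo1 lies on chromosome 3, between 52268336 and 52353221. Its levels were 43.1, 37.2 and 49.1 CPM in WT and 50.1, 66.6 and 33.7 CPM in CgA-KO livers. The CgA-KO livers held both the highest and the lowest value, and CgA-KO replicate 2, highest for Igfbp1 and Igfbp2, was highest here too. The log2 fold change was 0.22 with a 95% interval from -0.36 to 0.79 (edgeR adjusted p = 0.621). FOXO1 is regulated chiefly by phosphorylation, which these counts do not show.

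**Figure D3:**
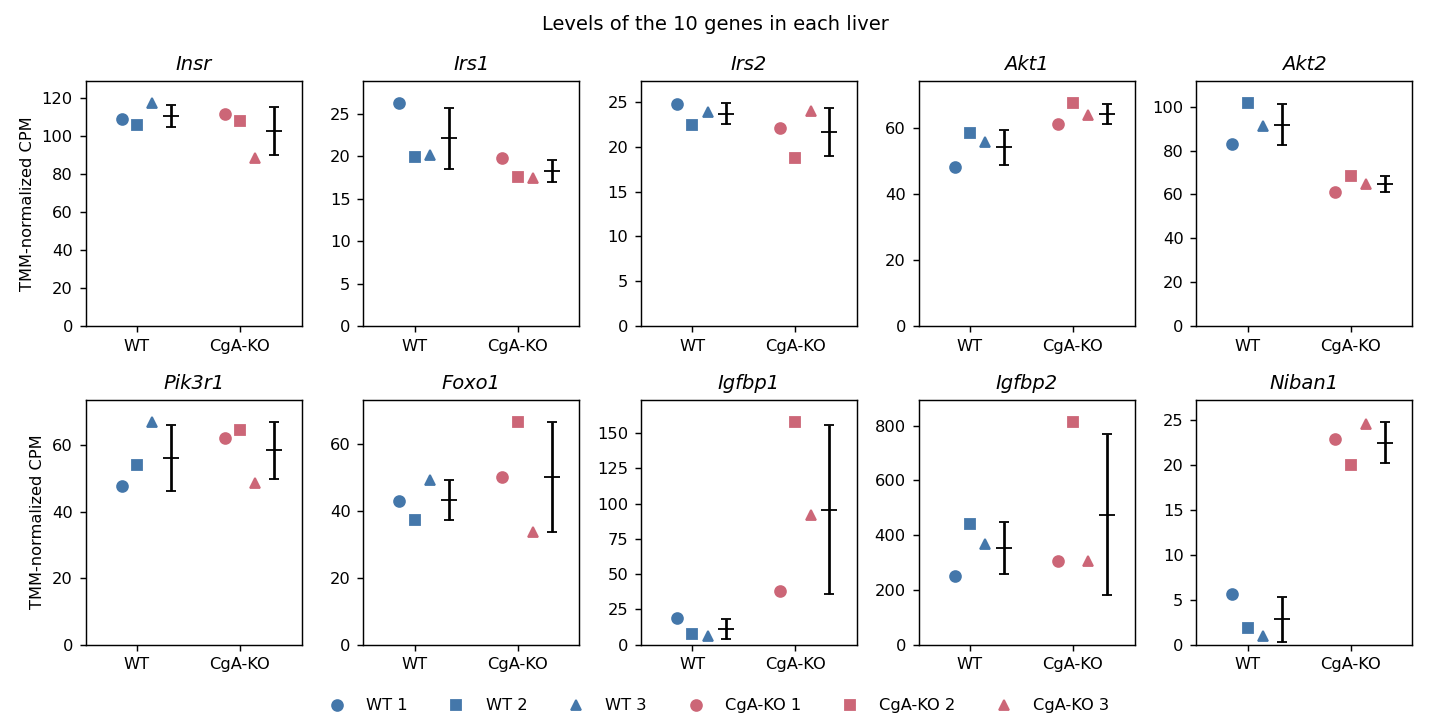
TMM-normalized CPM of each of the 10 genes in every liver, with WT in blue, CgA-KO in red, 1 symbol per replicate number and the mean and SD in black; every vertical axis starts at 0. Igfbp1 and Niban1 show CgA-KO livers well above WT livers, Akt2 shows them below, and CgA-KO replicate 2 is highest for Igfbp1, Igfbp2 and Foxo1.

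Niban1 (Fam129a in the annotation) lies on chromosome 1 from 151571186 to 151721939. WT replicates 1, 2 and 3 had 63, 42 and 23 counts, and CgA-KO replicates 1, 2 and 3 had 492, 630 and 548. As CPM these were 5.64, 1.79 and 0.974 against 22.8, 19.98 and 24.6. The CgA-KO livers were close to each other, with a coefficient of variation of 10.3%, against 89.0% in WT, where replicate 1 was high. The fold change was 8.51 with a 95% interval from 3.65 to 19.8 (log2 fold change 3.09, standard error 0.538, edgeR adjusted p = 0.0105). The call was lost without WT replicate 2 (log2 fold change 2.85, edgeR adjusted p = 0.0825), and without WT replicate 1 the log2 fold change was 4.06. Its relatives were not called by edgeR, DESeq2 or limma-voom, and 0 had an edgeR p-value under 0.05. For Niban2 the fitted value was 0.20 (edgeR adjusted p = 0.711) and for Niban3 -1.58 (edgeR adjusted p = 0.353), with Niban3 at 7.61 CPM in WT replicate 1 and between 0.298 and 1.16 CPM in the other libraries.

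WT replicate 1, the WT liver with most Niban1, most Niban3 and most Igfbp1, also held the most Kupffer cell markers of its group, 250.2 CPM against 100.2 and 99.7, and the most lymphocyte markers. It was also the shallowest library, with 10558616 counts in all. In CgA-KO replicates 1, 2 and 3 the Kupffer cell markers summed to 1619, 1381 and 944 CPM, so they were above every WT liver. The genes with the profile most like that of Niban1, by the root mean square difference of mean-centred log2 CPM over the 6 libraries, were Fcgr1 (0.181), a receptor for immunoglobulin G, Cd180 (0.217), a surface protein of the toll-like receptor family, and Pla2g4a (0.231), a phospholipase. For Igfbp1 they were Sash3 (0.250), Sh3kbp1 (0.258) and Cytip (0.305). All of these genes were themselves called higher in CgA-KO livers, from WT levels between 0.296 and 4.75 CPM. The likeness therefore includes the shared difference between the genotypes. CgA-KO replicate 2, with most Igfbp1, held the most neutrophil markers (372.1 CPM, against 29.6 and 34.5 in the other CgA-KO livers and 2.63 to 10.4 in WT) and the most bile duct markers (73.4 CPM). The part of these cell types in the differences of Niban1 and Igfbp1 was not tested.

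Levels can be compared between genes only per length. Per kilobase of exon, Igfbp2 led in WT livers with 242.1 ± 65.3 CPM per kb, and Akt1 (20.1 ± 1.99) and Akt2 (19.0 ± 1.95) followed, not separated beyond their spread. Then came Insr (11.8 ± 0.632), Pik3r1 (7.45 ± 1.31), Igfbp1 (7.17 ± 4.64), Foxo1 (4.98 ± 0.687), Irs2 (3.75 ± 0.181), Irs1 (2.42 ± 0.391) and Niban1 (0.396 ± 0.352). The range of Igfbp1 ran across those of Insr, Pik3r1 and Foxo1. In CgA-KO livers Igfbp1 stood second, at 62.9 ± 39.5 CPM per kb, and Akt1 (23.9 ± 1.14) was above Akt2 (13.4 ± 0.748) in every library. Niban1, at 3.17 ± 0.327 CPM per kb, was then within the spread of Irs2 (3.42 ± 0.420). Taking the longest transcript as the length put Akt2 at 20.2 CPM per kb in WT, just above Akt1, and Niban1 at 3.44 in CgA-KO, just above Irs2.

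Around these genes, 125 further genes of the path, chosen with earlier results of these data known, were grouped by role, of which 121 were tested. edgeR's test called 12 higher and 9 lower, or 17.4%, where 12.4% of all genes were called, and the median log2 fold change was -0.08 against -0.01 for all genes. Of the 21 called, 5 kept the call in every fit that left out 1 library, 3 kept it in none, and 0 changed sign in any alternative. Gys2, Fasn, Thrsp and Igfbp3 were among the 5. Under all 4 other scalings 8 were called, among them these genes, Pik3cd, Cdkn1a and Srebf1.

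Among 13 receptors and adaptors, 2 were called higher and none lower. They were Cbl, a ubiquitin ligase that acts on activated receptors (from 12.1 ± 4.66 to 28.9 ± 4.86 CPM, log2 fold change 1.26, edgeR adjusted p = 0.0241), and Grb2, the adaptor to the RAS branch (from 38.7 ± 5.56 to 62.8 ± 4.59 CPM, 0.70, adjusted p = 0.0373). Among 10 kinases of the PI3-kinase and AKT group, 2 were called higher. Pik3cd, the catalytic subunit best known from white blood cells, went from 5.93 ± 3.66 to 37.3 ± 17.7 CPM (2.69, adjusted p = 0.0125). With library factors from the hepatocyte markers, Pik3cd was still called, and Cbl and Grb2 were not. With 1 library left out, Pik3cd lost the call without WT replicate 2 or 3 (adjusted p up to 0.104), Cbl without WT replicate 3 or CgA-KO replicate 1 or 2 (up to 0.101), and Grb2 in each fit but that without WT replicate 1 (up to 0.182). The main hepatic catalytic subunits, Pik3ca (-0.06) and Pik3cb (0.0034), were named after their values were seen and were not called.

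Brakes on the path were called higher in 3 of 16 cases. Inpp5d, a lipid phosphatase of blood cells, rose by 2.10 on the log2 scale (edgeR adjusted p = 0.0267), Socs3, a cytokine-induced inhibitor, by 1.26 (adjusted p = 0.038), and Ptpn1, a phosphatase that acts on the insulin receptor, by 1.14 (adjusted p = 0.0203). None of the 3 was called with library factors from the hepatocyte markers (largest adjusted p over the 4 other scalings 0.0826 for Inpp5d, 0.0525 for Socs3 and 0.0524 for Ptpn1). With 1 library left out, Inpp5d kept the call only without WT replicate 1, and Socs3 and Ptpn1 lost it without WT replicate 2 or 3 or CgA-KO replicate 2. Pik3cd, Inpp5d, Cbl and Ptpn1 moved in the same direction as the Kupffer cell markers, 7 of 8 of which were called higher, and the part of those cells in them was not tested. Of the 13 genes of the mTOR branch, Mtor itself was called lower (-0.69, edgeR adjusted p = 0.0291), and 12 of 13 had negative values. The call of Mtor was lost in each fit that left out a library (adjusted p up to 0.111). Scaling by library size alone gave 3 of 13 negative and did not call Mtor, whose largest adjusted p over the 4 other scalings was 0.425, so that direction depends on the scaling.

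In the group of glycogen genes and AKT substrates, 2 of 10 were called lower and 2 higher. Gys2, the glycogen synthase of liver, was at 134.0, 217.7 and 250.6 CPM in WT and at 58.2, 80.4 and 57.5 CPM in CgA-KO livers (log2 fold change -1.62, standard error 0.277, edgeR adjusted p = 0.00985). Every CgA-KO liver was below every WT liver. The glycogen-targeting subunits of protein phosphatase 1 went opposite ways, with Ppp1r3b at -0.76 (adjusted p = 0.043) and Ppp1r3c at 1.30 (adjusted p = 0.0481), and both lost the call in each fit that left out a library. Tbc1d1, an AKT substrate, had 1.28 (adjusted p = 0.0376), and it kept the call only without WT replicate 1 among the fits that left out a library, and lost it with library size alone and with hepatocyte marker factors (adjusted p up to 0.122). In the MAPK branch of 15 genes, Hras was called lower (-0.99, adjusted p = 0.0233) and Dusp1, a phosphatase of MAP kinases, higher (1.11, adjusted p = 0.0434). Hras lost the call without WT replicate 2 or 3 or CgA-KO replicate 1 or 2, with library size alone and with hepatocyte marker factors (adjusted p up to 0.175). Dusp1 lost it without WT replicate 2 or 3 or CgA-KO replicate 2 (adjusted p up to 0.171) and with hepatocyte marker factors.

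**Figure D4:**
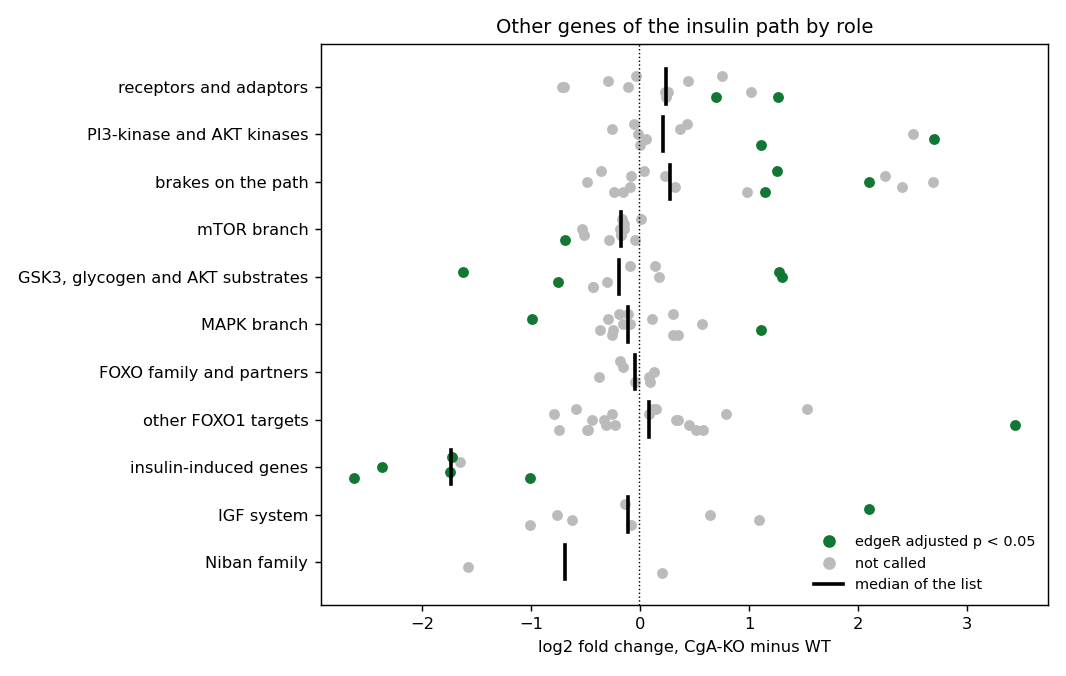
log2 fold change, CgA-KO minus WT, of each tested gene in 11 groups by role, with called genes in green, the median of each group as a black bar and the median of all genes tested as a dotted line. The insulin-induced genes lie to the left with a median of -1.74, while the medians of the groups of kinases, brakes, FOXO partners and other FOXO1 targets lie within 0.28 of 0. The groups were chosen with earlier results of these data known.

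Igfbp1 was next set beside other genes that FOXO1 is known to raise. Of 21 other FOXO1 targets tested, 1 was called higher and none lower, or 4.76% against 12.4% of all genes, and their median log2 fold change was 0.08. DESeq2 called 2 of them, 1 higher and 1 lower, in a test that called 16.7% of its genes. Before adjustment 8 had an edgeR p-value under 0.05, with changes of both signs among them, beside 29.1% of all genes. Log2 fold changes were positive for 11 of the 21 and negative for 10. The called gene was Cdkn1a, an inhibitor of the cell cycle that p53 also raises. Its levels were 5.46, 1.19 and 3.22 CPM in WT and 40.7, 23.1 and 39.5 CPM in CgA-KO livers (log2 fold change 3.44, standard error 0.484, edgeR adjusted p = 0.0055). All CgA-KO livers were above all WT livers, and without WT replicate 3 the adjusted p was 0.0523.

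The gluconeogenic targets Pck1 and G6pc, which were named after their values were seen, were not called. Pck1, which makes phosphoenolpyruvate, was at 2963, 2374 and 2806 CPM in WT and at 2463, 3951 and 2191 CPM in CgA-KO livers (log2 fold change 0.08, 95% interval from -0.62 to 0.78, edgeR adjusted p = 0.897). G6pc, the final enzyme of glucose release, was at 301.5, 197.2 and 126.3 CPM in WT and at 224.0, 189.4 and 277.0 CPM in CgA-KO livers (0.14, 95% interval from -0.58 to 0.87, adjusted p = 0.809). Both overlapped between the genotypes, and neither interval reached the lower bound of Igfbp1, 1.84. The part of FOXO1 in these values was not tested. In the group of FOXO family members and partners, none of the 7 tested was called by edgeR, DESeq2 or limma-voom, and 0 had an edgeR p-value under 0.05. Those of highest level, Crtc2 and Foxo3, had log2 fold changes of 0.08 and -0.15.

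Of 7 genes listed as insulin-induced, 6 were tested and 5 were called lower, where 3.84% of all genes were called lower. Their induction by insulin was not tested in these livers. Since this list was chosen with earlier results of these data known, the contrast with that share is a description, not a test. All 6 had negative values, with a median log2 fold change of -1.74. Thrsp, a regulator of lipogenesis, was at 104.8, 238.4 and 201.1 CPM in WT and at 27.1, 23.4 and 37.9 CPM in CgA-KO livers (-2.62, standard error 0.338, edgeR adjusted p = 0.00443). Fasn, the fatty acid synthase, was at 178.1, 267.4 and 205.2 CPM and at 72.7, 52.6 and 69.1 CPM (-1.74, adjusted p = 0.00498). In both genes every CgA-KO liver was below every WT liver. Srebf1, the transcription factor of lipid synthesis (-1.73, adjusted p = 0.0128), and Elovl6, a fatty acid elongase (-1.01, adjusted p = 0.0179), were also called lower, and were named after their values were seen. Scaling by library size alone kept all 6 negative, with a median of -1.44, and hepatocyte marker factors ended the call of Elovl6. Srebf1 also lost the call without WT replicate 2 or 3 (adjusted p up to 0.0553), and Elovl6 without WT replicate 3 or CgA-KO replicate 1 or 2 (up to 0.0753), so that 3 to 5 of the list were called with 1 library left out, the fewest without WT replicate 3. The tested gene that was not called was Onecut1, a liver transcription factor, at 15.6, 17.1 and 81.5 CPM in WT and at 11.5, 7.42 and 17.8 CPM in CgA-KO livers (-1.65, edgeR adjusted p = 0.119). Its groups overlapped, and WT replicate 3 stood far above the rest.

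**Figure D5:**
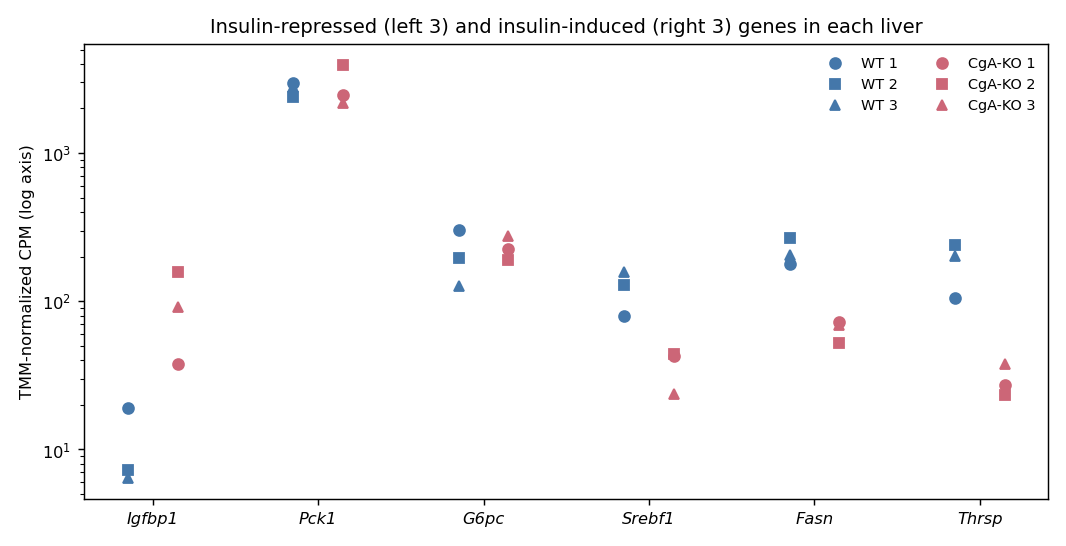
TMM-normalized CPM, on a log axis, of genes that insulin represses (Igfbp1, Pck1, G6pc) and induces (Srebf1, Fasn, Thrsp) in each liver, WT in blue and CgA-KO in red. Igfbp1 is higher in all CgA-KO livers, Pck1 and G6pc overlap between the genotypes, and the 3 induced genes are lower in all CgA-KO livers. Pck1, G6pc and Srebf1 were named after their values were seen.

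Both Igfbp1 and the insulin-induced genes are known to vary with feeding and hour of day. Clock genes differed between the genotypes in these libraries, with 3 of 12 called higher and 5 called lower, and they summed to between 698 and 1011 CPM in WT and between 360 and 435 CPM in CgA-KO livers. Whether hour or feeding takes part in the difference of Igfbp1 was not tested. In the IGF system, finally, Igfbp3, the main carrier of IGF1 in blood, was the only 1 of 8 genes called. It was at 14.2, 10.5 and 8.17 CPM in WT and at 52.9, 55.2 and 31.3 CPM in CgA-KO livers (log2 fold change 2.10, standard error 0.282, edgeR adjusted p = 0.00484). The groups did not overlap. Igf1 itself was at 400.2, 540.0 and 525.8 CPM in WT and at 389.3, 543.5 and 455.1 CPM in CgA-KO livers (-0.08, adjusted p = 0.862), and these overlapped.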

How the data were processed

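Poly(A) RNA was measured in livers of both genotypes, 3 mice each. The deposited values are counts, whole numbers per gene symbol without scaling, which the authors made with Salmon 1.4.0 against the GRCm38 transcriptome; how transcripts were summed to genes is not given in the sources used here. All columns matched a sample by name, with 0 left over, and 78 rows repeated a symbol. Low genes were removed by filterByExpr, set to a count of at least 10. TMM factors and a robust quasi-likelihood fit of edgeR 4.0.16 in R 4.3.3 followed, on genotype alone. Standard errors are the log2 fold change over the root of F, and 95% intervals use the fit's degrees of freedom. The replicates are separate mice, and p-values cover the spread between these mice. Replicates differed by more than sampling noise (chi-square of 29.9 to 190.3 for each degree of freedom).

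The ratios used an offset of 0.5 counts. Lengths and coordinates are from GENCODE M21 (GRCm38): the union of exons of protein-coding transcripts in its basic set. Promoters are from RefSeq. The members and lists were chosen with earlier results of these data known. In each list the called genes of largest change were named, up to 3 each way, or the 2 of highest level where none was called, and Pck1, G6pc, Pik3ca, Pik3cb, Srebf1, Elovl6, Onecut1 and Igf1 were added after their values were seen. Some genes that the rule names are not reported here. Alternatives were DESeq2 1.42.0, limma-voom 3.58.1, 4 other scalings, 2 other filters, a replicate block, a threshold of 0.01 and each library left out. On simulated counts with 200 changed genes the procedure recovered 79.5% of 195 that were tested, at 4-fold. A count of 0 is read as up to 3 counts, and such floors cover counting error only.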

Additional observations from a re-analysis of the deposited data

How the results depend on the processing

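The 2 calls among the 10 genes, Igfbp1 and Niban1, were also made with limma-voom, with each of the 4 other scalings, with at least 10 counts in every library and with a replicate block (2 calls). DESeq2 called 3, with Akt2 added. A filter on a total of at least 1 count called 1 (Igfbp1 then had an adjusted p of 0.0805), and a threshold of 0.01 called 0. With 1 library left out the count ran from 0 to 2. Of all genes, 1726 were called, against 786 with factors from the hepatocyte markers, 360 at a threshold of 0.01, and 394 to 2126 with 1 library left out (1498 with a replicate block). Of these 1726, 69.1% were higher in CgA-KO, against 86.6% of 1493 with library size alone and 85.9% with hepatocyte marker factors, and these scalings took the median over all genes from -0.01 to 0.26 and 0.19 (log2). Of the 121 further path genes, 21 were called, against 8 with hepatocyte marker factors, 6 at a threshold of 0.01, and 5 to 20 with 1 library left out.

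Among the members, the sign turned for Insr with library size alone (0.16), hepatocyte marker factors (0.080) and without CgA-KO replicate 3 (range -0.14 to 0.015 with 1 library left out), for Irs2 with the same 2 scalings (0.13 and 0.081), for Pik3r1 without WT replicate 1 (-0.020), and for Foxo1 (range -0.0089 to 0.46) and Igfbp2 (-0.17 to 0.70) without CgA-KO replicate 2; none of these was called. With 1 library left out, the log2 ratio of Irs2 to Irs1 differed by 0.02 to 0.20, that of Akt2 to Akt1 by -0.78 to -0.73 and that of Igfbp2 to Igfbp1 by -3.50 to -2.41. Same-numbered libraries did not deviate together (correlations 0.20, 0.01 and -0.07 for replicates 1, 2 and 3), so the numbers are not taken as pairs. With 3 livers per genotype, 8 of the 10 genes can be described only by their intervals. The causes of these changes were not tested.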
